A study of Homo sapiens with 12 samples.

Results

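The 9 genes described here encode complement components and regulators: the proteases C1R and C1S, the central component C3, factor B (CFB), the terminal component C5, the soluble inhibitor factor I (CFI), and the membrane regulators CD46, CD55 and CD59. They are 9 of the 60623 genes in the count table and were found by symbol. They were chosen by name with earlier expression values of these same 12 libraries known, so their levels and differences are a description and not independent support for any pattern. All 9 were present in the table, and all 9 passed the filter on low counts in each of the 6 comparisons.

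The genes were measured by RNA-seq in A549, an established human lung adenocarcinoma line. One line, V, carried the empty lentiviral vector pLV-EF1a-IRES-Hygro, whose name gives the EF1a promoter. The other lines carried HA-tagged human aryl hydrocarbon receptor (AHR) from lentivirus: the wild-type protein (WT), the S489A mutant, which cannot be phosphorylated at that serine (SA), or the S489D mutant, which mimics the phosphorylated serine (SD). All 4 lines, V included, were infected with lentivirus, selected with hygromycin at 200 ug/ml for 72 h and grown in RPMI medium with serum, and poly(A) RNA was sequenced from 3 biological replicates per line. Each construct is represented by a single selected line, so a difference between lines cannot be told apart from a difference between selections, and the p-values measure the spread between libraries of those lines.

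Complement is a cascade of plasma proteins that marks and lyses targets. C1r and C1s are the proteases of the C1 complex that start the classical pathway, all routes meet in the cleavage of C3, and cleavage of C5 starts the assembly of the membrane attack complex. Host cells limit the cascade with CD55, which speeds the decay of the convertases, CD46, a cofactor for the cleavage of C3b and C4b by factor I, and CD59, which blocks the last step of assembly. Most plasma complement comes from the liver, and lung epithelial cells also make several components.

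The 12 libraries held between 7844045 and 11765576 expected counts, and 3 counts, the limit allowed by a count of 0, corresponded to 0.256 to 0.381 CPM (the count scaled to the TMM-normalized library size). The introduced gene followed the labels, with AHR at 69.1 ± 4.51 CPM for V, 266 ± 28.3 for WT, 223 ± 5.89 for SA and 210 ± 9.14 for SD (mean ± SD, n = 3 libraries here and below). Between the AHR lines, AHR in SD was 0.787 times its level in WT (edgeR, adjusted p = 0.00774). Of 6 epithelial markers, 5 were above 3 counts in all 12 libraries, and the summed level of the list was 6059 to 6310 CPM for V, 4838 to 4871 for WT, 4674 to 4834 for SA and 4410 to 4638 for SD. Of 6 alveolar type II markers, only ABCA3 was above 3 counts in all 12 libraries. No endothelial marker (of 5) and no hepatocyte marker (of 6) was above 3 counts in all 12, with VWF, KDR, APOA2 and APOB at 0 throughout. FGB is in both the hepatocyte list and the acute phase list used below. The summed hepatocyte markers were 2.55 to 5.04 CPM for V, 1.34 to 2.63 for WT, 0.256 to 0.401 for SA and 0.536 to 2.14 for SD, and their part in the results below was not tested. Of 5 fibroblast markers only COL1A1, and of 6 haematopoietic markers only CD14 and CD68, were above 3 counts in all 12, while DCN, CD3E and MS4A1 were at 0. The summed fibroblast markers were 10.1 to 13.7 CPM for V, 5.97 to 7.57 for WT, 7.51 to 8.39 for SA and 7.61 to 10.2 for SD, and their part was not tested. The summed haematopoietic markers ran from 33.0 to 41.0 CPM in V and from 43.2 to 53.7 in the AHR lines, and their part was not tested either.

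Against V, the widest difference among the 9 genes was in C5, whose fitted level in the AHR lines was 0.345 to 0.484 times that in V. CD59 was higher in all 3 AHR lines, by 0.22 to 0.26 on the log2 scale. In SD, C3, C1R and C1S were also higher, by 0.32 to 0.71 against V and by 0.47 to 0.53 against WT. CFI was higher in SD than in V by 0.94, and CD55 was lower there by 0.27. The calls of C1S, and those of CFI and CD55 in SD against V, were lost when certain single libraries were left out. CFB, the protease of the alternative pathway convertase, passed the threshold in no comparison. In such bulk RNA, less RNA per cell and fewer expressing cells cannot be told apart. Genes are counted as called here where the edgeR p, adjusted by Benjamini and Hochberg over all genes tested in a comparison, was under 0.05.

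In counts, 4 of the 9 were called in WT against V, 1 higher and 3 lower, where 5.24% of all genes tested were called (2.31% higher and 2.93% lower). In SA against V, 2 were higher and 2 lower, where 7.17% of all genes were called (3.88% higher, 3.29% lower). In SD against V, 7 were called, 5 higher and 2 lower, against 5.41% of all genes (2.92% higher, 2.49% lower). Between the AHR lines fewer genes of any kind were called. For SD over WT, 3 of the 9 were higher and none lower, where 0.708% of all genes were called (0.513% higher, 0.196% lower). In SD against SA, 2 were higher and none lower, where 0.22% of all genes were called (0.16% higher, 0.0599% lower). In WT against SA, none of the 9 was called by edgeR, 3 had an unadjusted p under 0.05 (C5, C1R and CD55), and 0.0803% of all genes were called (0.0201% higher, 0.0602% lower). How many of all genes had an unadjusted p under 0.05 was not counted. DESeq2 called none of the 9 in WT against SA either, but gave an adjusted p for only 3 of them (C3, CD46 and CD59). Comparisons that share a line share its libraries, so these counts are not independent of one another. The median log2 fold change of the 9 was -0.17 in WT against V, -0.04 in SA against V, 0.26 in SD against V, 0.33 for SD over WT, 0.30 for SD over SA and -0.04 for WT over SA, where the median of all genes tested lay between -0.002 and 0.003 throughout.

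**Figure D1:**
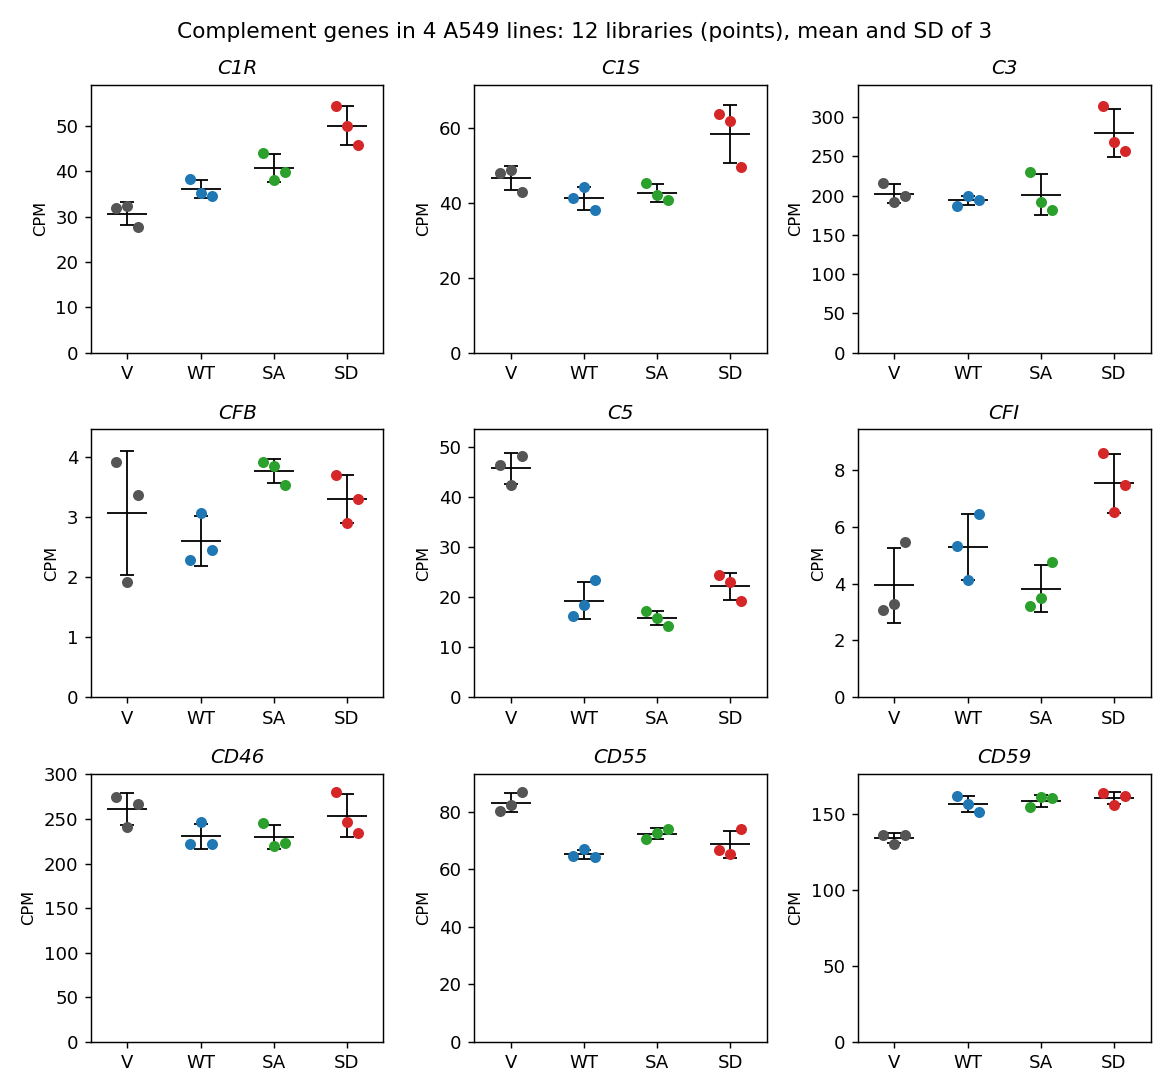
Level of each of the 9 genes in CPM (vertical axis, from 0) in the lines V, WT, SA and SD. Points are the 3 libraries of a line, the long dash is their mean and the bar their SD. C5 lies at 42.3 to 48.3 CPM in V and at 14.3 to 24.4 in the other 9 libraries, and C1R, C1S, C3 and CFI have their 3 SD libraries above the libraries of every other line. The share of all genes with libraries separated in this way was not counted.

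C1R (ENSG00000159403, GRCh38 chr12:7080214-7092540, minus strand) encodes C1r, which activates itself and then C1s. Its level was 31.9, 32.4 and 27.7 CPM for V, 38.4, 35.3 and 34.6 for WT, 44.1, 38.2 and 39.9 for SA, and 54.4, 49.97 and 45.7 for SD (replicates 1 to 3). No V library reached the lowest library of an AHR line, SD was above all others, and WT and SA overlapped. The difference from V was 0.23 in WT (log2 fold change, 95% interval 0.05 to 0.42, adjusted p = 0.155), 0.41 in SA (0.23 to 0.59, adjusted p = 0.00369) and 0.71 in SD (0.52 to 0.89, adjusted p = 6.79e-06). SD was also higher than WT, by 0.47 (0.29 to 0.65, adjusted p = 0.00626). Against SA the difference was 0.30 (0.12 to 0.47, adjusted p = 0.223), which did not pass although the libraries were separate. The 3 calls were retained whichever library was left out. Part of the C1R transcript sequence, 10.0% of its 50-base sequences, also occurs in the neighbouring paralog C1RL, and C1R counts were not whole numbers in 7 of 12 libraries. C1RL was 31.0 ± 1.04 CPM for V, 31.0 ± 2.53 for WT, 32.3 ± 2.14 for SA and 33.6 ± 2.97 for SD and was called in no comparison.

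C1S (ENSG00000182326, chr12:6988259-7071032, plus strand) encodes C1s, the protease that cleaves C4 and C2. Its level was 47.9, 48.9 and 43.0 CPM for V, 41.4, 44.3 and 38.2 for WT, 45.4, 42.0 and 40.7 for SA, and 63.7, 62.0 and 49.5 for SD. The lowest SD library was above the highest V library by a small margin, and V, SA and WT, in that order of their means, overlapped. SD was higher than V by 0.32 (SE 0.0895, adjusted p = 0.0308), than WT by 0.49 (SE 0.0926, adjusted p = 0.00774) and than SA by 0.45 (SE 0.0903, adjusted p = 0.0345). None of the 3 calls held with every library: SD against V lost its call without V replicate 1, 2 or 3 or SD replicate 1 or 2 (adjusted p = 0.071, 0.0556, 0.182, 0.125 and 0.155) and under DESeq2 (adjusted p = 0.0606). SD over WT lost it without WT replicate 1 or 3 or SD replicate 2 (adjusted p = 0.0524, 0.0632 and 0.0665), and SD against SA without SA replicate 2 or 3 or SD replicate 1 or 2 (adjusted p = 0.203, 0.198, 0.146 and 0.209). C1R and C1S thus shared their highest line, while C1R differed from V in SA and C1S did not pass there, at -0.13 (-0.29 to 0.03, adjusted p = 0.39).

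C3 (ENSG00000125730, chr19:6677704-6730562, minus strand) encodes the component in which all activation routes meet. Its level was 216, 192 and 199 CPM for V, 187, 199 and 195 for WT, 231, 192 and 182 for SA, and 315, 268 and 257 for SD. The SD libraries were all above the other 9, which overlapped between lines. SD exceeded V by 0.47 (SE 0.0665, adjusted p = 2.74e-05), a ratio of 1.39, and WT by 0.53 (SE 0.0653, adjusted p = 5.83e-05), a ratio of 1.44, and both calls held without any single library. SD exceeded SA by 0.48 (SE 0.081, adjusted p = 0.0089), but this call was lost without SA replicate 2 or 3 (adjusted p = 0.133 and 0.0719) and under DESeq2 (adjusted p = 0.132). In WT the difference from V was -0.06 (95% interval -0.16 to 0.04, adjusted p = 0.597), and in SA it was -0.01 (-0.15 to 0.13, adjusted p = 0.959), and both intervals ended below the difference of SD from V.

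CFB (ENSG00000243649, chr6:31945650-31952084, plus strand) was near the lower end of the levels, with 3.91, 1.91 and 3.37 CPM for V, 2.29, 3.07 and 2.45 for WT, 3.91, 3.84 and 3.53 for SA, and 3.70, 2.90 and 3.30 for SD. All neighbours in the order of the line means (SA, SD, V, WT) overlapped. Its intervals against V were wide, from -0.90 to 0.45 in WT, from -0.31 to 0.89 in SA and from -0.53 to 0.75 in SD. The intervals in SA and SD included 0.71 and 0.47, the differences of C1R and C3 between SD and V. The WT interval ended just below 0.47 and further below 0.71. Which differences could be detected at this depth was not tested. A readthrough gene, ENSG00000244255, shares 36.7% of the 50-base sequences of CFB and had 0 counts in every library, and C2, which lies just upstream on the same strand, had at most 9.

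C5 (ENSG00000106804, chr9:120952335-121050276, minus strand as deposited) encodes the precursor of the anaphylatoxin C5a and of C5b, the seed of the membrane attack complex. Its level was 46.5, 42.3 and 48.3 CPM for V, 16.1, 18.3 and 23.4 for WT, 17.2, 15.9 and 14.3 for SA, and 24.4, 22.9 and 19.2 for SD. No library of an AHR line reached the lowest V library, and the AHR lines overlapped from one to the next in the order SD, WT, SA. C5 fell by 1.24 on the log2 scale in WT (SE 0.106, adjusted p = 2.61e-09), by 1.53 in SA (SE 0.0962, adjusted p = 7.19e-12) and by 1.05 in SD (SE 0.0986, adjusted p = 5.45e-08), and each call held without any single library and under every other setting. SD and SA libraries did not overlap, with SD higher by 0.49 (0.23 to 0.74), which did not pass (adjusted p = 0.144) but did without SD replicate 3 (adjusted p = 0.0462). The counting strand is not given in the sources used here. In GENCODE v44, whose model of C5 extends past the deposited span, C5 shares 408 exon bases with the opposite-strand gene CNTRL, which encodes centriolin. Whether those bases lie within the deposited span was not checked. If they were counted without strand, reads from them could not be told apart. CNTRL was 32.5 ± 3.11 CPM for V, 28.8 ± 3.21 for WT, 29.9 ± 0.602 for SA and 31.1 ± 1.24 for SD.

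C5 is the gene with the widest span of line means among the 9, at 1.52 on the log2 CPM scale, so the sequence before its start sites is shown. RefSeq (GRCh38.p14) gave 250-base windows before 13 annotated start sites of 7 of the 9 genes, and C3 and C1S had no entry. C5 has a start site upstream, outside the deposited gene span, and a second one at the 5′ end of that span. Capitals mark matches on either strand to GCGTG, the core of the site bound by AHR with its partner ARNT. The windows lie at chr9:121074866-121075115 (first site) and chr9:121050276-121050525 (second site), both read on the minus strand, 5′ to 3′ towards the start.

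C5 first site: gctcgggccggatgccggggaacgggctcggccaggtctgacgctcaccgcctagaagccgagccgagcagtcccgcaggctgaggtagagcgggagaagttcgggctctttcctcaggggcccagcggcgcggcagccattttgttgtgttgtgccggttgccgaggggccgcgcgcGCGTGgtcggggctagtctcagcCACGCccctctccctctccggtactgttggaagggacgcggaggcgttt

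C5 second site: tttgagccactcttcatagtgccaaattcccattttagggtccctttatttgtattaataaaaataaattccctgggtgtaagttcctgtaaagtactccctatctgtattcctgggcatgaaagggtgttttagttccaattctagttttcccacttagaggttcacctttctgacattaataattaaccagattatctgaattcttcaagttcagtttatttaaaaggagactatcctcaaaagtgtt

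The first window has 2 matches, at 72 to 68 bases before the start on the strand of the gene and at 49 to 45 bases on the other, and has a GC content of 69.2%. The second has none, and its GC content is 34.8%. Of 34943 windows over all genes, 32.2% hold GCGTG, so the match is common, and it is a description of letters and not a site. The C5 window that holds it lies before the start outside the deposited span. Binding of AHR there was not tested. None of the other 11 windows held GCGTG, but C3 and C1S had no window, and windows of CD46 and of CD59 overlap each other. The other motifs searched on both strands were GGGANTTTC (NF-kB, in 1.12% of all windows), TTGCNNAA (C/EBP, 9.06%), TTCNNNGAA (STAT, 6.56%) and GAAANNGAA (interferon response element, 6.87%), and no matches overlapped each other. CFB, a gene known to be induced by interferon, had 1 STAT and 1 interferon response element match, at 92 to 84 and 139 to 131 bases before its start. C1R is the called member of the classical pathway for which a window was given. Its first window (chr12:7092446-7092695, minus strand) has 1 C/EBP match, in capitals, at 106 to 99 bases before the start.

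C1R first site: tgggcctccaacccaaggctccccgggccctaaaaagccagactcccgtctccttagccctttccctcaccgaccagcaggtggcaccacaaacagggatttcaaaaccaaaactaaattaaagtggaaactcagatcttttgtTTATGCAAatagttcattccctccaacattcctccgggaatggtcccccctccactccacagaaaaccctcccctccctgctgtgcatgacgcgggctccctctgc

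The second C1R window held a C/EBP match at 167 to 160 and a STAT match at 86 to 78 bases before its start. The window before the single CFI start and the windows of CD46 and CD55 had no match to any of the 5 motifs. Of the 4 CD59 windows, the first and the second, which overlap each other, held the same STAT match, and the third held 2 C/EBP matches.

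CFI (ENSG00000205403, chr4:109740694-109802179, minus strand) encodes factor I, the plasma protease that inactivates C3b and C4b. Its level was 3.09, 3.29 and 5.47 CPM for V, 5.34, 4.12 and 6.46 for WT, 3.21, 3.501 and 4.77 for SA, and 8.61, 6.54 and 7.48 for SD. The lowest SD library stood just above the highest WT library, and WT, V and SA overlapped. SD exceeded V by 0.94 (SE 0.235, adjusted p = 0.0154), the widest rise against V among the 9 genes. This call was lost without V replicate 1 or 2 or SD replicate 1 (adjusted p = 0.0993, 0.0811 and 0.0693). SD against SA had a difference of the same size, 0.98 (0.52 to 1.43), which did not pass (adjusted p = 0.0806), and SD against WT was at 0.52 (0.09 to 0.96, adjusted p = 0.345). The overlapping entry ENSG00000285330 shares 27.8% of the 50-base sequences of CFI and had at most 10.4 counts, in WT replicate 2.

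The membrane regulators differed from V by at most 0.35 on the log2 scale in either direction. CD46 (ENSG00000117335, chr1:207752057-207795513, plus strand) was at 275, 241 and 267 CPM for V, 222, 247 and 222 for WT, 246, 220 and 223 for SA, and 280, 247 and 234 for SD. All lines overlapped their neighbours. It was called lower in WT against V, by -0.18 (SE 0.053, adjusted p = 0.0456), and in SA against V, by -0.19 (SE 0.0558, adjusted p = 0.0408), though V replicate 2 was below the highest library of either line. The first call was lost without V replicate 1 or 3 or WT replicate 1 or 3 (adjusted p = 0.29, 0.144, 0.18 and 0.226) and under DESeq2 (adjusted p = 0.0621), and the second without V replicate 1 or 3 or SA replicate 2 or 3 (adjusted p = 0.259, 0.15, 0.209 and 0.18). In SD the difference from V was -0.04 (-0.17 to 0.09, adjusted p = 0.826).

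CD55 (ENSG00000196352, chr1:207321376-207386804, plus strand), the decay-accelerating factor, was at 80.3, 82.5 and 86.8 CPM for V, 64.5, 67.0 and 64.2 for WT, 70.5, 72.6 and 74.2 for SA, and 66.9, 65.3 and 74.0 for SD. All 9 libraries with introduced AHR were below the 3 V libraries. CD55 fell by 0.35 on the log2 scale in WT (SE 0.0643, adjusted p = 0.000668), and this call held without any single library. It fell by 0.27 in SD (SE 0.0692, adjusted p = 0.0171), a call lost without V replicate 2 or 3 or SD replicate 2 (adjusted p = 0.058, 0.103 and 0.117). In SA the difference was -0.20 (-0.33 to -0.07, adjusted p = 0.0569). SA and WT libraries did not overlap, but their difference, -0.15 for WT against SA (-0.29 to -0.01), did not pass (adjusted p = 0.649).

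CD59 (ENSG00000085063, chr11:33703010-33736491, minus strand), the inhibitor of the membrane attack complex, went the other way. Its level was 136, 130 and 136 CPM for V, 162, 156 and 151 for WT, 154, 161 and 160 for SA, and 164, 156 and 162 for SD. The V libraries were below all the others, and the AHR lines overlapped one another. CD59 was higher than V by 0.22 in WT (SE 0.0508, adjusted p = 0.00684), by 0.24 in SA (SE 0.0529, adjusted p = 0.00386) and by 0.26 in SD (SE 0.056, adjusted p = 0.0041), and all 3 calls held without any single library. Between the AHR lines its differences were within 0.04, with intervals from -0.13 to 0.15. CD59 counts were not whole in 11 of 12 libraries. The entry ENSG00000284969 shares 5.36% of its 50-base sequences and held at most 13.5 counts.

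Summed over CD46, CD55 and CD59, the level was 478 ± 21.5 CPM for V, 452 ± 16.8 for WT, 461 ± 8.45 for SA and 483 ± 24.4 for SD, and the ranges of the 4 lines overlapped. Adding the counts of overlapping entries on the same strand to those of the members changed no call. It moved C1R, to which C1RL was added, to 0.24 in SA (adjusted p = 0.0313) and 0.44 in SD (adjusted p = 0.000224) against V and to 0.32 in SD against WT (adjusted p = 0.0378).

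**Figure D2:**
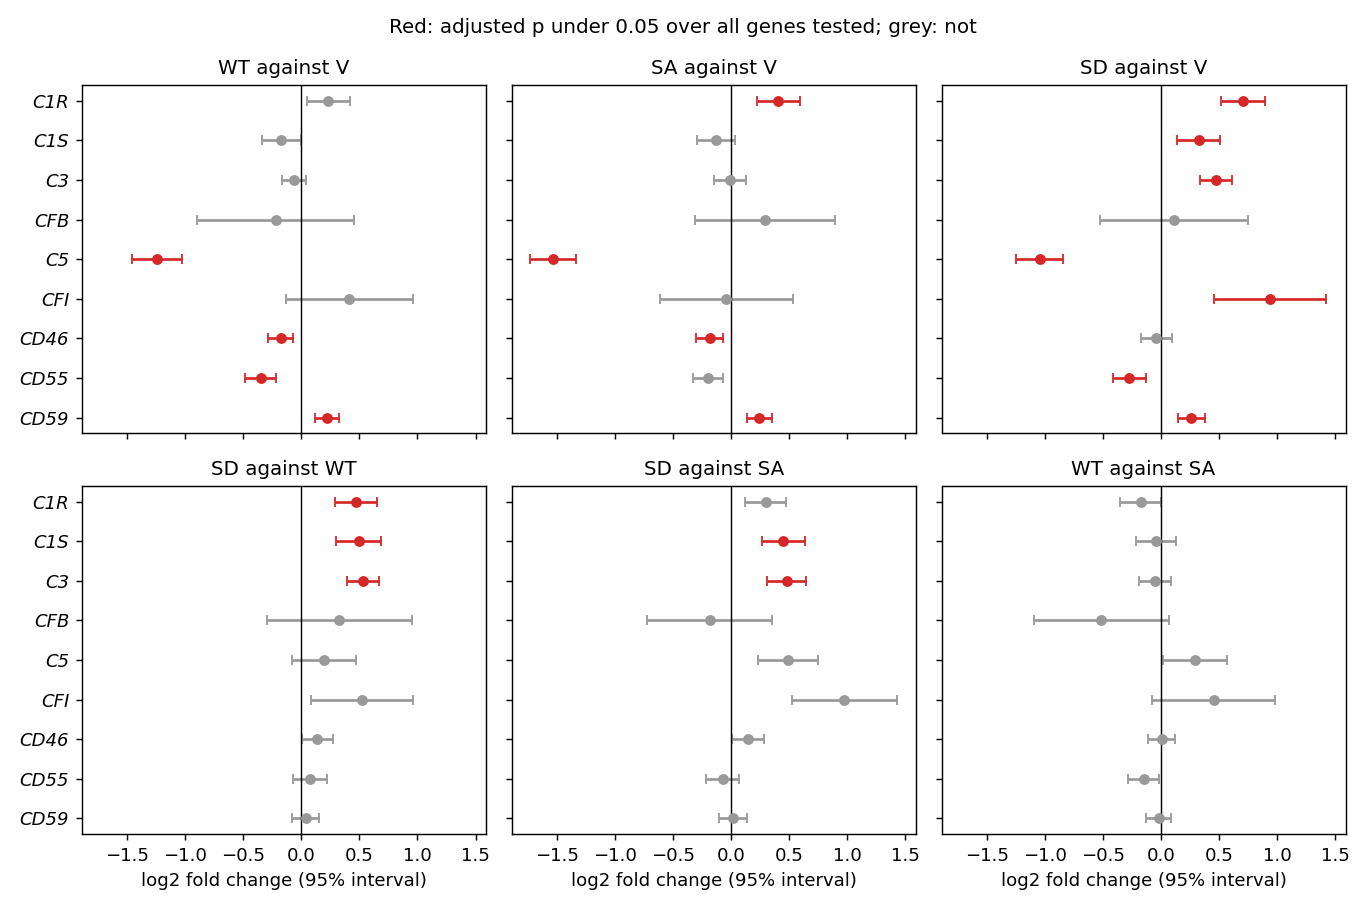
Log2 fold change of the 9 genes (first line over the second) in the 6 comparisons, with 95% intervals from edgeR. Red points are called genes. C5 lies at -1.53 to -1.05 in the comparisons against V, CD59 at 0.22 to 0.26, and in the comparison of WT with SA no point is red.

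Per kilobase of exons (GENCODE v44), the 9 genes spanned a wide range of levels. The deposited spans of C5, CFB, CFI, CD46, CD55 and CD59 differ from those of GENCODE v44, most widely for C5. Their lengths may therefore differ from those behind the counts. The order of genes and the size of the C3 to C5 ratio below are approximate, while comparisons between lines use the same lengths throughout. In V, C3 was at 17.5 CPM per kilobase, CD46 at 16.8 and CD59 at 12.7, followed by CD55 at 8.12, C1S at 5.62, C1R at 5.28 and C5 at 2.71, and then by CFI at 0.742 and CFB at 0.576. In SD, C3 was at 24.2 CPM per kilobase, and CFI at 1.42 was near C5 at 1.31. The mean of C1R was above that of C1S in all AHR lines, at 6.22 against 4.98 CPM per kilobase in WT, 7.02 against 5.15 in SA and 8.62 against 7.04 in SD. The ratio of C3 to C5 per kilobase, which compares the central component with the next in the cascade, was 6.47 ± 0.398 for V, 14.99 ± 2.50 for WT, 18.6 ± 0.948 for SA and 18.5 ± 1.30 for SD. The WT libraries were the most spread, at 16.9, 15.9 and 12.2. No library of an AHR line came near the V libraries, at 6.77, 6.62 and 6.02. C3 differed from V by only -0.06 in WT and -0.01 in SA on the log2 scale, so the ratio there mainly restates the fall of C5. In SD, where C3 was higher than in V by 0.47, the ratio combines both differences.

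**Figure D3:**
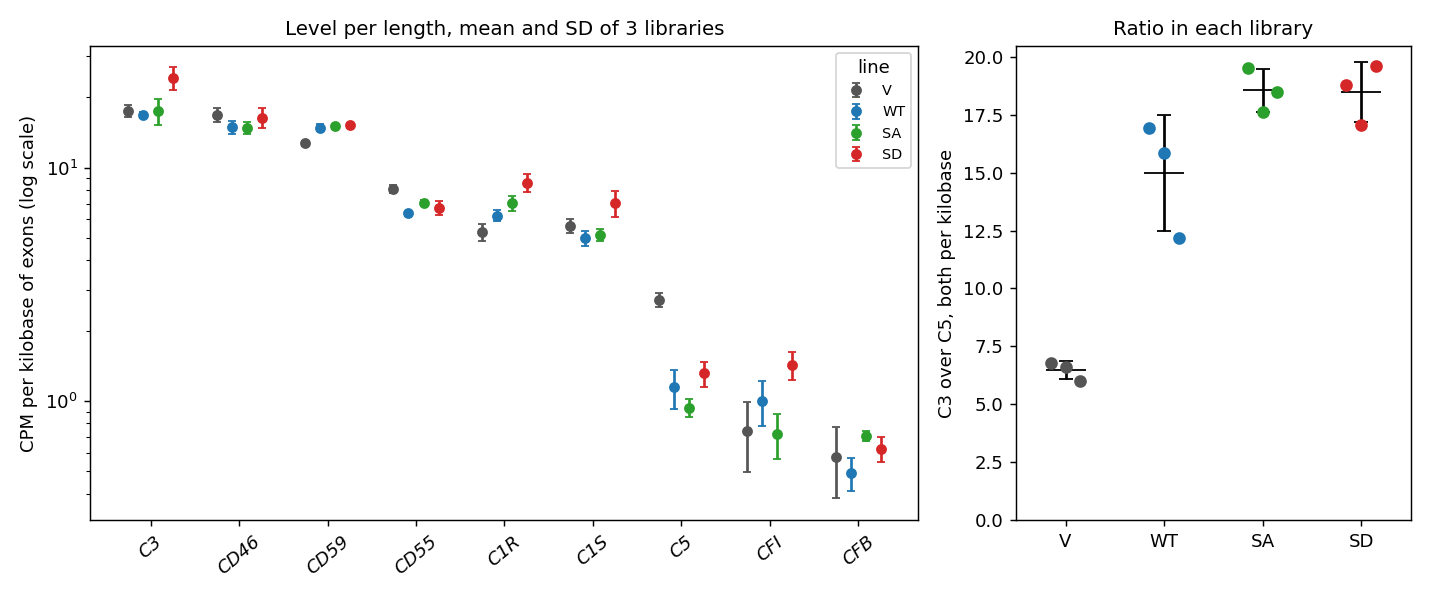
Left, level of each gene in CPM per kilobase of exons (logarithmic axis), as mean and SD of 3 libraries per line. Right, the ratio of C3 to C5 per kilobase in each library (axis from 0), with the mean and SD of each line. The ratio was 6.02 to 6.77 in V and 12.2 to 19.6 in the other lines.

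Across 14416 genes tested in all 6 comparisons, the profile of line means most like that of C5 was that of H19, an imprinted long noncoding RNA, at a Euclidean distance of 0.167 between the centred log2 CPM means of the 4 lines. H19 was at 6.04 CPM for V, 2.33 for WT, 2.19 for SA and 2.82 for SD. POC1B-AS1 (distance 0.191) and ENSG00000255201 (0.214) had means under 3 CPM in all lines, KCNJ2, a potassium channel gene, was at a distance of 0.219, and FGL1, which encodes a fibrinogen-like protein made in liver, at 0.249. FGL1 was at 19.8 CPM for V, 10.1 for WT, 8.60 for SA and 11.3 for SD. With only 4 means to a profile, this likeness is a description.

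The rest of the pathway was read from a list of 49 further complement genes, all of them in the table, of which 12 passed the filter on low counts. Of these, 2 were lower in WT against V, 1 was higher and 1 lower in SA against V, and 2 were higher and 1 lower in SD against V. Of all genes tested, 5.24%, 7.17% and 5.41% were called in these comparisons. None of the 12 was called between the AHR lines. There 0.708% (SD against WT), 0.22% (SD against SA) and 0.0803% (WT against SA) of all genes were called, so none of 12 is near the share of all genes. For SD over WT, 2 had an unadjusted p under 0.05 and DESeq2 called 1 (C4B, adjusted p = 0.0272), for SD over SA 1 had an unadjusted p under 0.05 and DESeq2 called none, and for WT over SA neither count was above 0, with a DESeq2 adjusted p for only 2 of the 12. The share of all genes with an unadjusted p under 0.05 was not counted. None of the 6 genes of the terminal pathway after C5 (C6, C7, C8A, C8B, C8G and C9) passed the filter. C1QA, C1QB and C1QC, whose products complete the C1 complex with C1r and C1s, had 0 counts in all 12 libraries, which allows up to 0.381 CPM in the shallowest library.

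Among the soluble regulators, CLU, clusterin, a fluid-phase inhibitor of membrane attack, was at 578 ± 34.1 CPM for V, 489.1 ± 7.71 for WT, 496 ± 25.8 for SA and 460 ± 33.5 for SD. Its differences from V were -0.24 (adjusted p = 0.000551), -0.22 (adjusted p = 0.00576) and -0.33 (adjusted p = 0.000618), the second lost without V replicate 1 or SA replicate 2 or 3 (adjusted p = 0.106, 0.0582 and 0.0501). CFD, factor D, which cleaves factor B, belongs to the alternative pathway and not to these regulators. CFD was lower in WT than in V by -0.27 (48.2 ± 3.77 against 57.9 ± 4.95 CPM, adjusted p = 0.0421), a call lost without V replicate 1 or WT replicate 2 or 3 (adjusted p = 0.296, 0.208 and 0.099) and under DESeq2 (adjusted p = 0.0883). VTN, vitronectin, which also inhibits membrane attack, was at 13.6 ± 0.325 CPM for V, 10.7 ± 2.31 for WT, 10.6 ± 1.61 for SA and 12.3 ± 2.32 for SD and was called in no comparison. C1QBP, which binds the globular heads of C1q, was at 316 to 352 CPM in the line means and was called in no comparison.

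ITGAX, a subunit of complement receptor 4 on leukocytes, was at 2.54 ± 0.543 CPM for V, 3.83 ± 0.439 for WT, 4.82 ± 0.541 for SA and 5.15 ± 0.864 for SD. It was called higher in SA (0.91, adjusted p = 0.0405) and SD (1.01, adjusted p = 0.0258) against V. The SA call was lost whichever of the 6 libraries was left out (adjusted p from 0.0528 to 0.174), and the SD call without V replicate 2 or 3 or SD replicate 2 or 3 (adjusted p = 0.0762, 0.132, 0.131 and 0.076). C4B was higher in SD than in V, 2.82-fold (4.03 ± 1.26 against 1.42 ± 0.974 CPM, adjusted p = 0.026), a call lost without V replicate 2 or 3 or SD replicate 1 or 3 (adjusted p = 0.0784, 0.152, 0.123 and 0.0577) and with all 12 libraries in one fit (adjusted p = 0.0718). It shares nearly all of its sequence with C4A, so the split of reads between them is uncertain. The sum of both was 8.31 ± 1.47 CPM for V, 7.94 ± 1.03 for WT, 8.35 ± 0.898 for SA and 10.8 ± 1.73 for SD, and SD overlapped V in that sum.

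**Figure D4:**
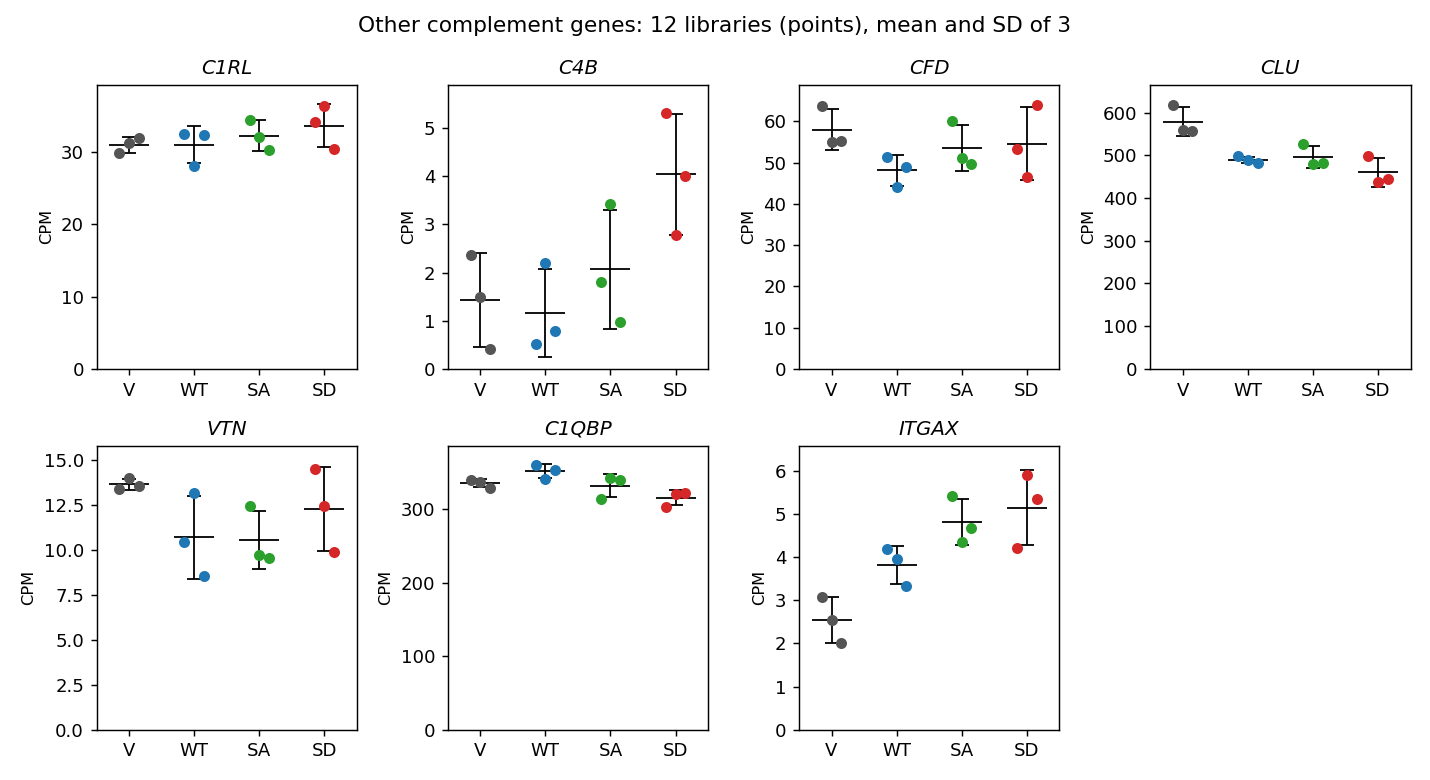
Level in CPM (vertical axes, from 0) of the other complement genes named in the text, in the lines V, WT, SA and SD, with 3 libraries as points, their mean as a dash and their SD as a bar. The 3 V libraries of CLU lie between 557 and 617 CPM and the other 9 between 437 and 526.

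As a list, the 12 complement genes outside the 9 had a median log2 fold change of -0.12 in WT against V, -0.07 in SA against V, 0.04 in SD against V, 0.16 for SD over WT and 0.10 for SD over SA. The acute phase genes, another group of plasma proteins made mainly in liver, had medians of -1.06 in WT, -1.55 in SA and -1.57 in SD against V, over 5 tested genes of 20. Of these, 2, 3 and 3 were called lower and none higher, with FGA at 13.8 ± 3.31 CPM for V, 5.98 ± 1.80 for WT, 3.62 ± 2.00 for SA and 4.63 ± 0.933 for SD. The group did not fall as a whole. CP, its gene with the highest mean, differed from V by -0.04 in WT, -0.36 in SA and 0.13 in SD and was called in no comparison. Each median of 5 genes is the value of a single gene. In WT it was FGB, which was not called (edgeR, adjusted p = 0.0904), and in SD it was FGA. The coagulation genes, with 12 tested of 26, had medians of -0.06, 0.11 and -0.07 against V, with 1 higher and 1 lower in WT, 1 and 1 in SA, and 1 and 2 in SD. Of all genes tested, 5.24%, 7.17% and 5.41% were called in these comparisons. When SD was set against WT or SA, no acute phase or coagulation gene was called by edgeR, where 0.708% and 0.22% of all genes were. At an unadjusted p under 0.05 there were 2 and 1 acute phase genes and 5 and 3 coagulation genes, respectively. In WT against SA none was called, and 4 of 6 acute phase genes and 1 of 12 coagulation genes had an unadjusted p under 0.05. Without the share of all genes at that threshold, which was not counted, these numbers cannot be judged.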

How the data were processed

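RNA-seq of 4 stable A549 lines was analysed, with 3 libraries per line. The authors trimmed reads with Trimmomatic 0.39, quantified them against GRCh38 transcripts with RSEM and deposited an expected count per gene and library, without normalization. A second deposited table holds log2 fold changes, p-values and q-values of the authors' own edgeR comparisons and was not used. The aligner settings and the counting strand are not given in the sources used here.

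Expected counts were rounded, and 2 lines at a time, on their 6 libraries, were tested with edgeR 4.0.16 (R 4.3.3): filterByExpr (minimum count 10, minimum total 15), TMM normalization, the two-sided quasi-likelihood test, and adjustment by Benjamini and Hochberg over all genes tested (threshold 0.05). Genes are called on that threshold. CPM used TMM-normalized library sizes, and lengths were merged exons of GENCODE v44. The fit was tested on simulated data first. Libraries of a line differed by more than counting noise, so none was a copy. Intervals are at the 95% level, and limits from 3 counts cover counting error only.

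The members and lists were chosen with earlier results of these data known. All 9 members are named, and of the other complement genes those called in any comparison or among the 5 with the highest mean CPM, and H19, POC1B-AS1, ENSG00000255201, KCNJ2 and FGL1 as the 5 profiles nearest to that of C5. Of each of the acute phase and coagulation lists at most the 3 genes of highest mean could be named. A further gene is not reported here. C4A, the C1q chains and the terminal pathway genes stand outside this rule and were named after their values were seen. Alternatives were every gene with at least 1 count, DESeq2 size factors, DESeq2 1.42.0, all 12 libraries in one fit, a replicate block, counts summed with overlapping entries, and leaving out each library.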

Additional observations from a re-analysis of the deposited data

How the results depend on the processing

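Of 642 values of the 9 genes under the alternatives, 585 kept their direction and their side of the threshold, 34 lost a call, 6 gained one and 17, all uncalled throughout, changed sign. DESeq2 gave no adjusted p for 6 of the 9 genes in WT against SA, and these are not counted. C5 in the 3 comparisons against V, C3 in SD against V and WT, C1R in its 3 called comparisons, CD55 in WT against V and CD59 in the 3 comparisons against V were called under every alternative run. With all 12 libraries in one fit, CD46 lost both calls (adjusted p = 0.153 and 0.0972).

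Replicate numbers are shared between lines, but the deviations of same-numbered libraries correlated at only -0.0669 to 0.0944, so they were not treated as pairs in the main fit. Between the AHR lines all of these correlations were positive, at 0.0128 to 0.0900, so a weak shared structure there is possible. With the replicate block, CD46 in WT against V was not called (adjusted p = 0.154), CD55 in SA against V was (adjusted p = 0.0475), and so were C5 and CFI in SD against SA (adjusted p = 0.0372 and 0.0348). The replicate block called 507 genes in WT against V (774 without it), 245 in SD against WT (105), 165 in SD against SA (33) and 25 for WT over SA (12), with 4 members in SD against SA and 1 other complement gene each in WT against V (2 without it) and SD against WT (0). Testing every gene with at least 1 count called 252 genes in SD against WT, 153 in SD against SA and 103 for WT over SA, with 4 members in SD against SA, where C5 and CFI were added (adjusted p = 0.0227 and 0.00281), and 1 other complement gene in SD against WT. One fit of all libraries called 5 genes in WT against SA and 1 other complement gene in WT against V, and DESeq2 called 1 member in SD against SA and 1 other complement gene each in WT against V, SA against V and SD against WT. The causes were not tested.

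Leaving out 1 library gave 434 to 720 genes in WT against V, 621 to 1195 in SA against V, 502 to 856 in SD against V, 45 to 145 in SD against WT, 11 to 56 in SD against SA and 2 to 25 for WT over SA. The members called were 3 to 4, 3 to 4, 4 to 7, 2 to 3, 0 to 3 and 0 in the same order, with 4 in SD against V without V replicate 2 and 0 in SD against SA without SA replicate 2 or 3. The other complement genes called were 1 to 2, 0 to 1, 1 to 3, 0 to 1, 0 and 0, with 1 in WT against V without V replicate 1 or WT replicate 2 or 3, 0 in SA against V without V replicate 1 or SA replicate 2 or 3 and 1 without any other single library, 1 in SD against V without V replicate 2 or 3 or SD replicate 3, and 1 in SD against WT without WT replicate 2. The log2 fold changes with a change of sign had leave-one-out ranges of -0.1141 to 0.0605 (C3) and -0.2311 to 0.2657 (CFI) in SA against V, -0.1365 to 0.3224 (CFB) and -0.1177 to 0.0166 (CD46) in SD against V, -0.0048 to 0.0358 (CD59) in SD against SA, and -0.1183 to 0.0552 (C3), -0.0996 to 0.0149 (C1S), -0.0464 to 0.0563 (CD46) and -0.0445 to 0.0065 (CD59) for WT over SA. Summed with overlapping entries, CFB in SD against V was -0.0365. CFB and CFI were measured at under 10 CPM and had the widest intervals against V.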
